A study of Homo sapiens with 12 samples.

Results

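The response of MDA-MB-436 cells to depletion of PHF19 was described from 6 of the 12 libraries of the study. MDA-MB-436 is an established triple-negative breast cancer line, lacking hormone receptors and HER2 amplification. Of the 6 libraries, 3 came from cells given a non-targeting siRNA pool (siNT, ON-TARGETplus, Dharmacon) and 3 from cells given 2 Silencer Select siRNAs against PHF19 (ThermoFisher) in equal parts (siPHF19). All cells were reverse transfected with RNAiMAX at 5 nM siRNA in total, and polyadenylated RNA was sequenced at 72 h. The other 6 libraries hold the same 2 treatments in BoM-1833, another triple-negative line, and were used only where the lines are compared. The siPHF19 cells thus differ from the controls in the target, in the siRNA chemistry and in the supplier, and the effects of the 2 siRNAs cannot be told apart because they were mixed.

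PHF19, also called Polycomb-like 3, is an accessory subunit of Polycomb repressive complex PRC2. PRC2 methylates lysine 27 of histone H3 through EZH2, with EED and SUZ12 as further core subunits, and genes carrying that mark are usually silent. The Polycomb-like proteins PHF1, MTF2 and PHF19 bind DNA at CpG islands, read methylated lysine 36 of histone H3 through a Tudor domain, and help PRC2 settle on its targets. In breast cancer cells PRC2 is known for silencing developmental regulators, cell cycle inhibitors and adhesion genes.

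A normalized count is the number of reads assigned to a gene divided by the size factor of its library, which scales the libraries to a common depth. Reads in genes numbered 15186338 to 24010271 per library. Differences between the groups were tested with limma on log2(normalized count + 1). Log2 fold changes of low genes may thus be understated or, where only some libraries of a group hold no reads, overstated. A gene was called at a Benjamini-Hochberg adjusted p under 0.05 among all genes with a mean of at least 10. Chi-square per degree of freedom between replicates was 5.92 to 21.3 for pairs of siNT libraries and 2.57 to 3.35 for pairs of siPHF19 libraries, so the controls varied more. Part of this followed transcript length: with genes in 4 equal bins of exon length, the median log2 deviation of the longest bin minus that of the shortest was -0.213, -0.0502 and 0.109 in siNT 1, 2 and 3 and 0.105, 0.038 and -0.0157 in siPHF19 1, 2 and 3. The part of this trend in each result was not tested beyond a fit with the trend removed. Nothing in the labels says that the libraries came from separate cultures, so p-values measure the spread between these libraries only.

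Hormone receptor genes were at or near 0, and some luminal, basal and mesenchymal markers were detected. ESR1, PGR, GATA3, KRT19 and CDH1 had means under 10. The luminal markers FOXA1 (92.8, 89.1 and 100.3 normalized counts in siNT) and EPCAM (85.1, 86 and 79.5) were detected, as were ERBB2 (932, 1094 and 1142), KRT8 and KRT18. FOXA1 was called higher by 0.47, a call lost with the replicate block, by DESeq2 and without siNT 2, siPHF19 1 or siPHF19 2. The basal markers KRT17, EGFR and OXTR had means of 958.9, 1469 and 716.5, while KRT5 and KRT14 stood under 10. VIM stood at 19093, 19979 and 20231 normalized counts in siNT and 18548, 18780.4 and 18097 in siPHF19. Of 12 immune markers, 9 had a mean under 10, among them CD3E and MS4A1 at 0 in all 6 libraries, and the fibroblast markers DCN and LUM were also at 0 throughout. The summed luminal list was 7056 to 7443 in siNT and 8964 to 9082 in siPHF19, carried by KRT8 and KRT18. The summed immune list was 1046 to 1113 in siNT and 796.3 to 889.6 in siPHF19, carried by CD68 and CD14. Both were called lower, but the call of CD68 was lost without siPHF19 3. That of CD14 was lost without siNT 1, siNT 2 or any 1 siPHF19 library. In bulk RNA, fewer cells of a kind and less RNA per cell cannot be told apart.

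PHF19 itself, the check of the labels, stood at 2942, 3354 and 3763 normalized counts in siNT 1, 2 and 3 and at 340.1, 326 and 315 in siPHF19 1, 2 and 3. The log2 fold change was -3.35 (SE 0.09, limma adjusted p = 5.54e-08), the largest decrease among genes with a mean of at least 100. An exact 2-sided permutation test gave p = 0.1, the smallest that 3 against 3 libraries allow.

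Of 13968 genes tested, 1621 (11.6%) rose and 1689 (12.1%) fell by limma after siPHF19. Most of these changes were small: the median absolute log2 fold change of called genes was 0.42, and the median over all genes tested was 0.00. With genes in 4 equal bins of abundance, in the lowest bin 14.6% were called with a median size of 0.876, against 27.8% with a median size of 0.34 in the highest bin. An absolute log2 fold change of at least 1 was reached by 107 genes that rose (0.766%) and 182 that fell (1.3%). In 107 of the former and 181 of the latter the siNT and siPHF19 libraries did not overlap, a separation seen in 42.7% of all tested genes. Of these 289 genes, 209 were called in each of the 6 fits that left out 1 library, as were 1453 of all 3310 called genes. Called genes numbered 1894 without siNT 2, 1756, 1876 and 1865 without siPHF19 1, 2 and 3, and 4836 without siNT 3. The counts of individual gene groups given further on move in the same way where this is stated.

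**Figure D1:**
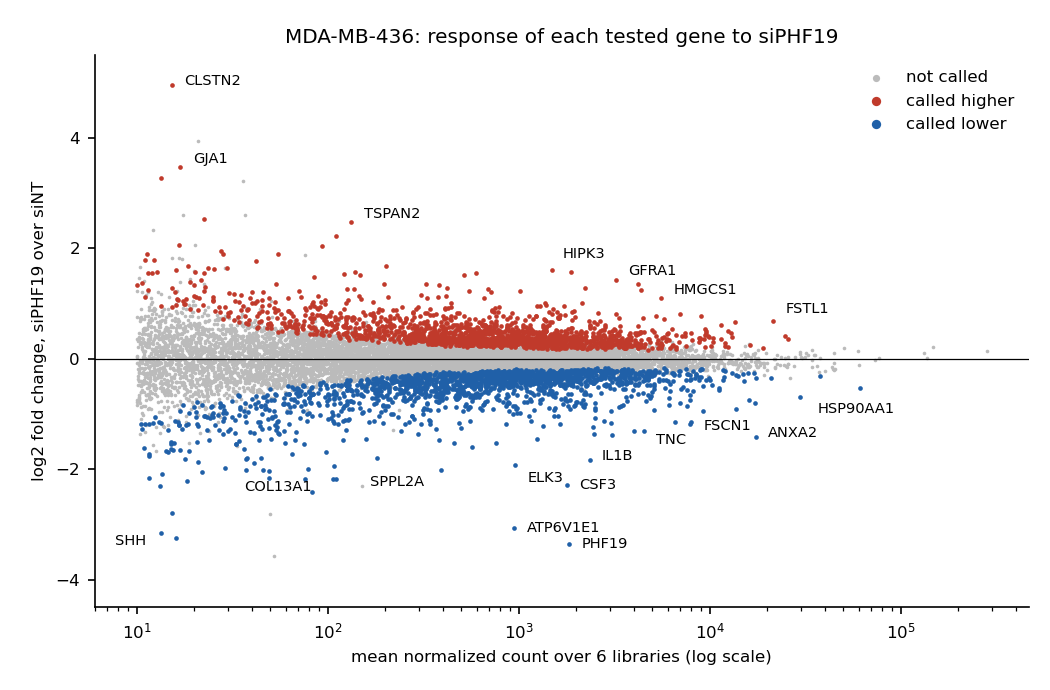
Each point is 1 of 13968 tested genes. The horizontal axis gives the mean normalized count over 6 libraries on a log scale and the vertical axis the log2 fold change of siPHF19 over siNT; red and blue points were called higher and lower, grey points were not called. PHF19 (-3.35) and ATP6V1E1 (-3.07) lie far below all other genes with a mean over 100, and the highest labelled point is CLSTN2.

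Among genes with a mean of at least 100, the 15 with the largest decrease included 2 secreted inflammatory signals, a pair of membrane proteins and several small intracellular factors. ATP6V1E1, the E subunit of the vacuolar proton pump (chr22:17592136-17628818, minus strand, hg38 with GENCODE 29 here and throughout), was next to PHF19. It held 1877, 1609 and 1563 normalized counts in siNT and 201, 214 and 185 in siPHF19, a log2 fold change of -3.07 (SE 0.09, limma adjusted p = 8.48e-08). CSF3 (chr17:40015361-40017813), the granulocyte growth factor G-CSF, stood at 3215, 2875 and 2765 in siNT and 601, 658 and 559.8 in siPHF19 (-2.28, SE 0.08, adjusted p = 3.44e-07). IL1B (chr2:112829751-112836903), the inflammatory cytokine interleukin 1 beta, went from 3505, 3629 and 3819 to 1013, 1173 and 919 (-1.82, SE 0.09, adjusted p = 2.85e-06). The groups were far apart in each of these genes, and the lowest control library of CSF3 held 2765 against 658 in the highest siPHF19 library. ELK3, an ETS transcription factor that partners with serum response factor, fell from 1476, 1454 and 1629 to 391, 441 and 364 (-1.93, adjusted p = 1.88e-06).

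COL13A1, a membrane-bound collagen, stood at 196, 171 and 175 in siNT and 40.3, 45.6 and 32.7 in siPHF19 (-2.17, limma adjusted p = 1.93e-05). LFNG, the glycosyltransferase that modifies Notch receptors, held 266, 284 and 297 and then 80.7, 80.3 and 79.2 (-1.81, adjusted p = 5.37e-06). PMEPA1, a membrane adaptor that restrains TGF-beta signals, held 845, 777 and 947 and 297, 287 and 265 (-1.59, adjusted p = 5.12e-06). It overlaps the opposite-strand transcript NKILA, and whether the counting used strand is not given in the sources used here. The 3 siPHF19 libraries of LFNG were nearly equal. The protease SPPL2A, which cuts proteins within the membrane, held 660.4, 598 and 620.0 and 155, 175 and 136 (-2.01, adjusted p = 3.37e-06). SERPINB2, the plasminogen activator inhibitor PAI-2, held 196, 169.7 and 166 and 58.9, 70.4 and 61.3 (-1.47, adjusted p = 6.83e-05).

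The remaining 5 genes of this group are less well characterised. CCDC74A, a coiled-coil protein gene, held 145, 169.7 and 208 normalized counts in siNT and 46.9, 35.6 and 31.7 in siPHF19 (log2 fold change -2.17, limma adjusted p = 5.55e-05). Its near-identical copy CCDC74B on the same chromosome, with a mean under 100, held 20.7, 29.5 and 15.9 and 1.09, 7.45 and 4.22 (-2.31, adjusted p = 0.0109). Reads may be shared between these copies, so their values are uncertain, and the call of CCDC74B was lost in 1 of 6 fits without a library (adjusted p = 0.0611). PAPL, a purple acid phosphatase-like gene, changed by -1.95, ABRACL, a small actin-associated protein, by -1.52, and the mRNA export cofactor NXT2 by -1.52 (adjusted p = 0.000115, 4.37e-05 and 3.37e-06). CDC26, a subunit of the anaphase-promoting complex that overlaps PRPF4 on the opposite strand, changed by -1.47 (adjusted p = 0.000173). The siPHF19 libraries held 56.7, 43.9 and 32.7 counts of PAPL, 385, 414 and 362 of ABRACL, 221, 245 and 246 of NXT2 and 225, 176 and 199 of CDC26, in each case below the lowest control.

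The transcripts of 4 of these genes hold a stretch that resembles 1 stretch of PHF19. It differs from PHF19 at 2 bases in CCDC74A and CCDC74B and at 4 in ATP6V1E1 and SPPL2A. The latter 2 genes are shown, out of 81 with 4 differences, because they fell. PHF19 exon 2 of 15, in the coding sequence, holds the 19 bases shown first (chr9:120874621-120874639, minus strand), printed because their last 8 bases recur in transcripts that fell. The word AAACTG was found first, by its excess in 3′ UTRs of genes that fell (given further on), and the stretch was then laid around its single coding occurrence in PHF19, with 12 bases before and 1 after. Its ends are thus a choice made after seeing the data. ATP6V1E1 and SPPL2A differ from PHF19 within its last 8 bases. Capitals in the PHF19 line mark 6 of those bases, and in the other lines each base equal to PHF19.
PHF19: gacttgatgtccAAACTGa
CCDC74A, 3′ UTR, chr2:131533533-131533551, plus strand: tACTTGATcTCCAAACTGA
CCDC74B, 3′ UTR, chr2:130139402-130139420, minus strand: tACTTGATcTCCAAACTGA
ATP6V1E1, coding, chr22:17598221-17598239, minus strand: atgTTGATGTCCAAAtTGA
SPPL2A, coding, chr15:50722159-50722177, minus strand: GAtTTGATGTtCAgACTGg
ZNF862, coding, chr7:149859442-149859460, plus strand: GACTTGATcTCCAAACTGg
ATP5E, 3′ UTR, chr20:59028173-59028191, minus strand: GAgTTGATGgCCAAACTGA

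Counting positions from 1 at the 5′ end of the PHF19 stretch, CCDC74A and CCDC74B differ at G1T and G9C, and ATP6V1E1 at G1A, A2T, C3G and C16T. ZNF862 and ATP5E are shown because they have as few differences, 2 each (G9C and A19G, C3G and T10G), and were not called. ZNF862 held 51.3, 67.4 and 81.9 normalized counts in siNT and 70.9, 63.8 and 57 in siPHF19, and ATP5E held 4049.5, 3159.9 and 2659 and 3279, 3609 and 3455, so their groups overlapped. Among 12639 genes whose longest coding transcript was searched, those whose closest stretch had 2 differences numbered 4, of which 2 fell. These 2 are the near-identical copies CCDC74A and CCDC74B, which may share reads and are not separate observations. Of 4 genes with 3 differences 0 were called by limma, edgeR or DESeq2 and 2 had an unadjusted limma p under 0.05. Of 81 genes with 4 differences 16 fell (19.8%) and 8 rose (9.88%). With 5 differences 14.5% of 698 genes fell and 14.8% rose, and with 6 differences 12.3% of 3416 genes fell and 13.1% rose. The siRNA sequences are not given in the sources used here, and whether they pair with these stretches was not tested.

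**Figure D2:**
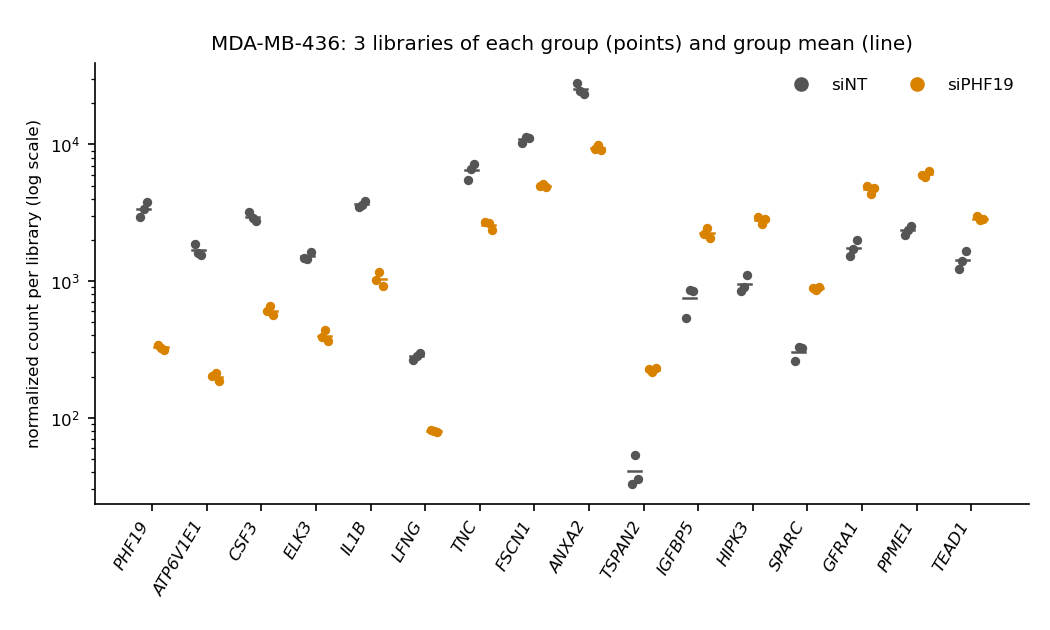
Normalized counts on a log axis in each library for 16 genes, with siNT in grey, siPHF19 in orange and a line at each group mean of 3 libraries. The groups do not overlap in any of the 16 genes, which were chosen for their change.

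The 15 genes with the largest increase at a mean of at least 100 were led by membrane and secreted proteins. TSPAN2 (chr1:115048011-115089500), a tetraspanin, stood at 32.7, 53.5 and 35.5 normalized counts in siNT and 228, 215 and 229 in siPHF19. Its log2 fold change was 2.47 (SE 0.18, limma adjusted p = 2.02e-05). IGFBP5, which binds insulin-like growth factors, held 534, 862 and 844 and 2198, 2432 and 2076 (1.61, adjusted p = 0.000115), with siNT 1 lowest among its controls. SPARC, a secreted protein that binds collagen, held 261, 327 and 322 and 887, 861 and 902 (1.55, adjusted p = 7.46e-06). GFRA1, the receptor of the neurotrophic factor GDNF, was the most abundant of the group, with 1517, 1718 and 1986 and 4962, 4299 and 4818 (1.44, adjusted p = 1.17e-05). COL14A1, a fibril-associated collagen, held 64.4, 72.9 and 66 and 188, 289.9 and 153 (1.57, adjusted p = 0.000624), with siPHF19 2 the highest.

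Intracellular members of the same group included a kinase, a phosphatase modifier and a zinc finger gene. HIPK3, a nuclear protein kinase, held 851, 899 and 1104 normalized counts in siNT and 2950.1, 2629.8 and 2862 in siPHF19 (log2 fold change 1.57, limma adjusted p = 7.46e-06). PPME1, the methylesterase of protein phosphatase PP2A, held 2179, 2376 and 2547 and 5991, 5742 and 6420.3 (1.35, adjusted p = 3.37e-06). It overlaps C2CD3 on the opposite strand. ZNF469, a zinc finger gene, went from 212, 243 and 361 to 716, 739 and 831 (1.52, adjusted p = 0.000211). The carboxypeptidase CPA4 rose by 1.69, the poly(A) polymerase FAM46B by 1.53, the pseudokinase SGK223 by 1.33 and the clone-named transcript RP11-320G24.1 by 1.35 on the log2 scale. BSCL2, the lipid droplet protein seipin, which overlaps GNG3 on the opposite strand, rose by 1.36. In these 5 genes the lowest siPHF19 library exceeded the highest control, by 286 against 102 counts for CPA4 and 424 against 237 for BSCL2.

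Larger folds occurred at lower abundance, among genes with a mean of 10 to 100. CLSTN2, a calsyntenin of synaptic membranes, had 0 reads in all 3 siNT libraries and 29.4, 24.8 and 37 normalized counts in siPHF19 (limma adjusted p = 6.47e-05). Against the limit of 3 reads over the siNT group it was at least 30.7-fold higher. GJA1, the gap junction connexin 43, held 3.27, 1.55 and 1.22 in siNT and 29.4, 26.5 and 39.1 in siPHF19, a log2 fold change of 3.48 (adjusted p = 0.000261). FAM198B, a Golgi protein, held 31.7, 35.7 and 39.1 and 155, 137 and 157 (2.05, adjusted p = 1.98e-05), although FAM198B-AS1 lies on the other strand. The natriuretic peptide gene NPPB held 8.73, 1.55 and 11 and 40.3, 39.8 and 33.8 (2.54, adjusted p = 0.0065), and the neuronal adhesion gene SLITRK6 3.27, 5.43 and 9.78 and 31.6, 24.8 and 24.3 (2.06, adjusted p = 0.00403). LOC102723547 was called at 3.27 (adjusted p = 0.025), but its groups nearly met (0, 10.9 and 0 against 21.8, 11.6 and 35.9). Only 2 of the 6 fits without a library kept the call. It was not called by edgeR (2.299, adjusted p = 0.0584) or by DESeq2 (2.634, adjusted p = 0.321).

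Decreases at low abundance were led by secreted signals and a protease. SHH, the Hedgehog ligand, held 20.7, 30.2 and 23.2 normalized counts in siNT and 3.27, 1.66 and 1.06 in siPHF19 (log2 fold change -3.15, limma adjusted p = 0.000646). PRSS3, a trypsin, held 34.9, 31.8 and 15.9 and 2.18, 4.97 and 2.11 (-2.80, adjusted p = 0.00154), with the caveat that trypsin genes share near-identical sequence. ESM1, a secreted proteoglycan of endothelial and tumour cells, held 167, 114 and 131 and 13.1, 35.6 and 31.7 (-2.41, adjusted p = 0.000743). CHRNA9, a nicotinic receptor subunit, held 27.3, 30.2 and 31.8 and 5.45, 13.3 and 2.11 (-2.22, adjusted p = 0.00971). C21orf33 was called at -3.25 (adjusted p = 0.0386) with 37.1, 21.7 and 18.3 against 18.5, 0 and 0, so siPHF19 1 lay within the controls. Only 1 of the 6 fits without a library kept that call. It was not called by edgeR (-2.161, adjusted p = 0.0892) or by DESeq2 (-2.065, adjusted p = 0.535).

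Ranked by the difference of group means in place of the fold, the 6 largest losses were those of HSP90AA1, ANXA2, TPM4, TPM3, ENO1 and EEF2. This order reflects transcript length as well as abundance and is no order of molecules. HSP90AA1, the inducible HSP90 chaperone, held 86694, 66894 and 62975 normalized counts in siNT and 49453, 49395 and 49492 in siPHF19 (log2 fold change -0.53, limma adjusted p = 0.00546), with siNT 1 far above the other 2 controls. ANXA2, which binds phospholipid and plasminogen at the cell surface, went from 28100.0, 24415 and 23382 to 9302, 9924 and 9147 (-1.42, adjusted p = 3.37e-06). The tropomyosins TPM4 and TPM3, which coat actin filaments, fell by 0.81 and 0.91 on the log2 scale, from 22647, 21924 and 21555 to 12538, 12854 and 12362 and from 19759.7, 17385 and 16615 to 9394, 9837 and 9234. The glycolytic enzyme ENO1 held 38209.6, 35899 and 35489 and 22355, 23657 and 22073 (-0.69, adjusted p = 5.77e-05). The translation factor EEF2 held 39574, 42671 and 42518 and 33627, 32663 and 33973 (-0.31, adjusted p = 0.00429). Processed pseudogenes of HSP90AA1, ANXA2, TPM3 and ENO1 may have taken part of their reads.

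The largest gains in counts were in the secreted glycoprotein FSTL1, the lipid enzymes SCD and SQLE, PABPC1, PEG10 and IL7R. FSTL1 went from 15972, 16654 and 16478 normalized counts in siNT to 26429.8, 25634 and 26794 in siPHF19 (log2 fold change 0.68, limma adjusted p = 3.58e-05). SCD, the desaturase that makes monounsaturated fatty acids, held 18547, 21466 and 23309 and 28319, 28722 and 27146 (0.42, adjusted p = 0.0055). PEG10, an imprinted gene derived from a retrotransposon, held 9609, 10464 and 11268 and 17020.3, 16704 and 15956 (0.67, adjusted p = 0.000156). IL7R, the receptor of interleukin 7, held 6235, 6852 and 6901 and 11553, 11156 and 11321 (0.77, adjusted p = 3.07e-05), and PABPC1, which binds poly(A) tails, 23618, 22115 and 22096 and 29458, 28193 and 28854 (0.35, adjusted p = 0.00208). The sterol enzyme SQLE rose by 0.62. None of the 6 genes had a siPHF19 library at or below a control library.

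Genes were then grouped by function. Each count of the main fit is to be read beside the 11.6% of all genes tested that rose (1621) and the 12.1% that fell (1689). Counts without 1 library are to be read beside the calls of that same fit. Over all genes, 1858, 940 and 2406 rose and 1967, 954 and 2430 fell without siNT 1, 2 and 3 in turn. With siPHF19 1, 2 and 3 left out in turn, 799, 874 and 865 rose and 957, 1002 and 1000 fell. Lower members outnumbered higher ones most clearly in the proteasome (12 of 31 fell, 1 rose), the secreted proteases with the plasminogen system (11 of 29 tested members fell and 0 rose by limma, edgeR or DESeq2, with 3 higher at an unadjusted limma p under 0.05) and the cytokines with NF-kB genes (14 of 35 fell, 4 rose). Of the YAP and TEAD genes 18 of 36 rose and 4 fell, and of the CDK inhibitors and D cyclins 7 of 14 rose. The cholesterol synthesis and interferon lists, for comparison, had 19 of 23 and 13 of 37 members higher, the latter 5 of 37 without siPHF19 1 or 2.

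**Figure D3:**
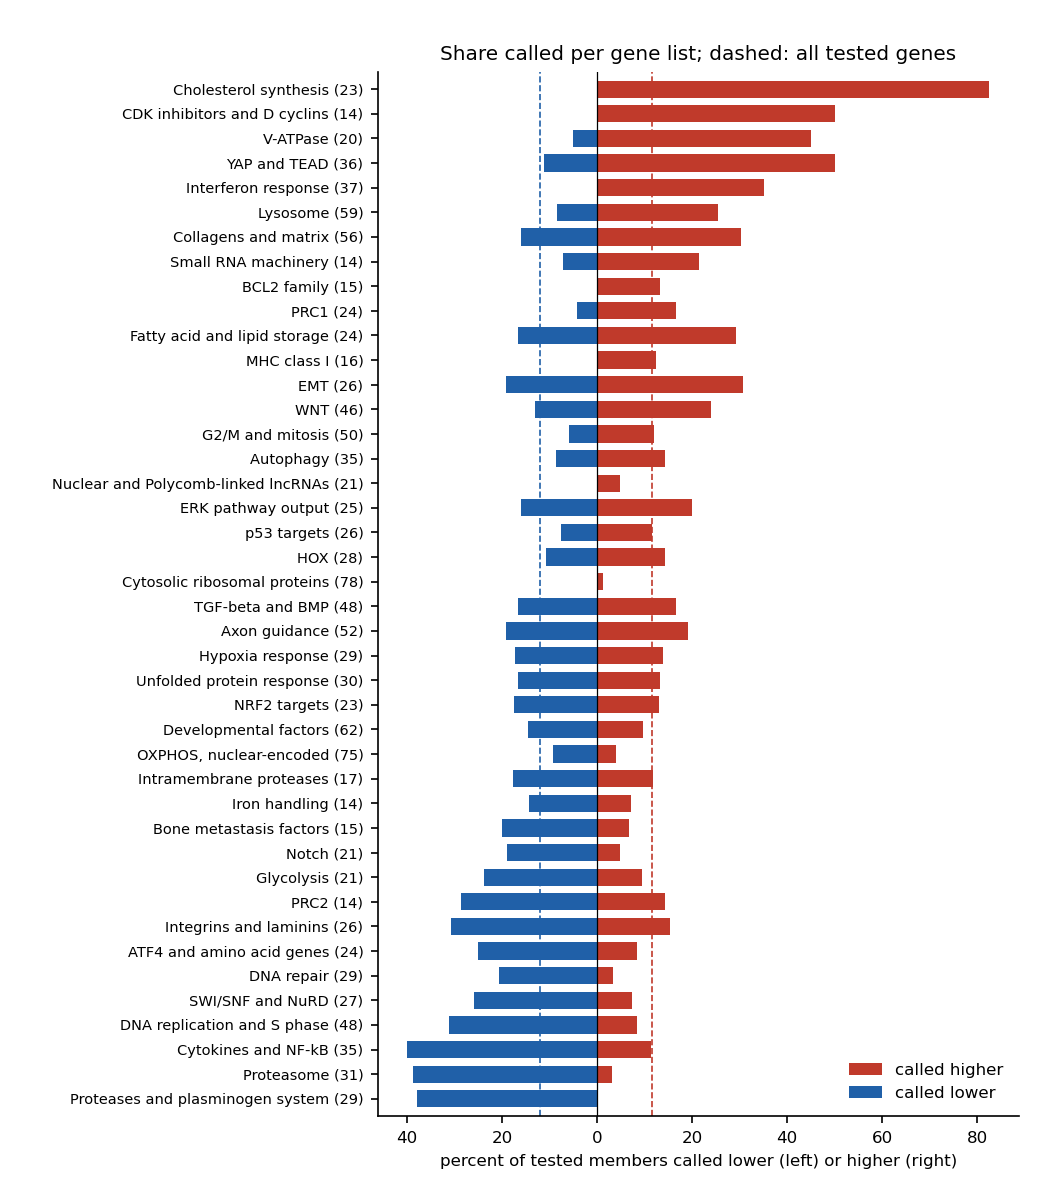
Percent of the tested members of each gene list shown (number in brackets) that were called lower, to the left, or higher, to the right. Dashed lines give the shares of all tested genes, 11.6% higher and 12.1% lower; the cytokine, proteasome and protease bars extend farthest to the left, and the cholesterol synthesis bar farthest to the right.

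Among cytokines and NF-kB targets, the median log2 fold change was -0.21. Besides CSF3 and IL1B, IL11, a cytokine of the IL-6 family that stimulates osteoclast formation, held 343, 347 and 340.0 normalized counts in siNT and 129, 128 and 162 in siPHF19 (-1.30, SE 0.11, limma adjusted p = 5.36e-05). IL8, the neutrophil chemokine CXCL8, was far more abundant, at 13143, 11884 and 11323 and 5992, 6621 and 6296 (-0.94, adjusted p = 2.28e-05). CCL20, which attracts dendritic cells and T cells through CCR6, held 3379, 3220.4 and 3119.8 and 1726, 1786 and 1711 (-0.90, adjusted p = 1.09e-05). LIF, also of the IL-6 family, fell by 0.70, IL1A by 0.56, CXCL1 by 0.43 and the mitochondrial superoxide dismutase SOD2 by 0.40 on the log2 scale. The increases were IL6, IL18, IL15 and TNFAIP2, the last kept in 2 of 6 fits without a library and lost with the replicate block. IL6 held 4304, 4255 and 4196 and 5720.3, 5909.8 and 6346 (0.49, adjusted p = 0.000391). IL6 thus moved opposite to the other members of its family named here. The lower count stayed between 12 and 17 when any 1 library was left out, and the higher count was 7 without siNT 3.

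All 11 called proteases, inhibitors and receptors of the plasminogen system were lower, with a median of -0.07 over the 29. MMP2, a gelatinase, held 391, 436 and 459.8 normalized counts in siNT and 167, 191 and 142 in siPHF19 (-1.37, SE 0.12, limma adjusted p = 6.11e-05). SERPINE2, an inhibitor of thrombin and plasminogen activators, held 2413, 2224 and 2165 and 1013, 1051 and 928 (-1.18, adjusted p = 7.46e-06). The urokinase PLAU and its receptor PLAUR fell less, from 4301, 4163 and 4359.8 to 3386, 3470.5 and 3255 (-0.34, adjusted p = 0.002) and from 1036, 898 and 868 to 576, 670.1 and 654 (-0.56, adjusted p = 0.00186). ADAMTS6, a metalloprotease of the matrix, fell by 1.08 and ADAM12 by 0.87. Since proteases and protease inhibitors (SERPINB2, SERPINE2, TIMP4) both fell, the list mixes opposed activities. Between 9 and 12 members fell in the fits without 1 library.

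YAP and TAZ are transcription coactivators that act through the TEAD factors and are held back by the Hippo kinases. The median of their list was 0.28. TEAD1 itself held 1221, 1399 and 1646 normalized counts in siNT and 2977, 2774 and 2842 in siPHF19 (1.02, SE 0.10, limma adjusted p = 9.03e-05). YAP1 held 2506, 2631 and 2797 and 3325, 3221 and 3197 (0.30, adjusted p = 0.00668). Among the usual target genes, CYR61 held 8597, 7947 and 7266 and 10953, 10656 and 11904 (0.49, adjusted p = 0.00126) and CTGF 703, 862 and 898 and 1169.8, 1111 and 1219.9 (0.51, adjusted p = 0.00381). AMOTL2, a target that also binds YAP, held 4566, 5167 and 5555 and 8874, 8626 and 9165 (0.81, adjusted p = 8.07e-05). The kinase NUAK2 and the scaffold AJUBA rose by 0.75 and 0.69. Among the 4 lower members, VGLL4, which competes with YAP for TEAD, held 3368, 3637 and 3637 and 2509.6, 2602 and 2313 (-0.52, adjusted p = 0.000501), and NT5E, the ectonucleotidase CD73, 3772, 3547 and 4145 and 1778, 1784 and 1663 (-1.13, adjusted p = 7.46e-06). The higher count was 15 to 23 without any 1 library, and the lower count was 2 without siNT 2 or any 1 siPHF19 library.

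**Figure D4:**
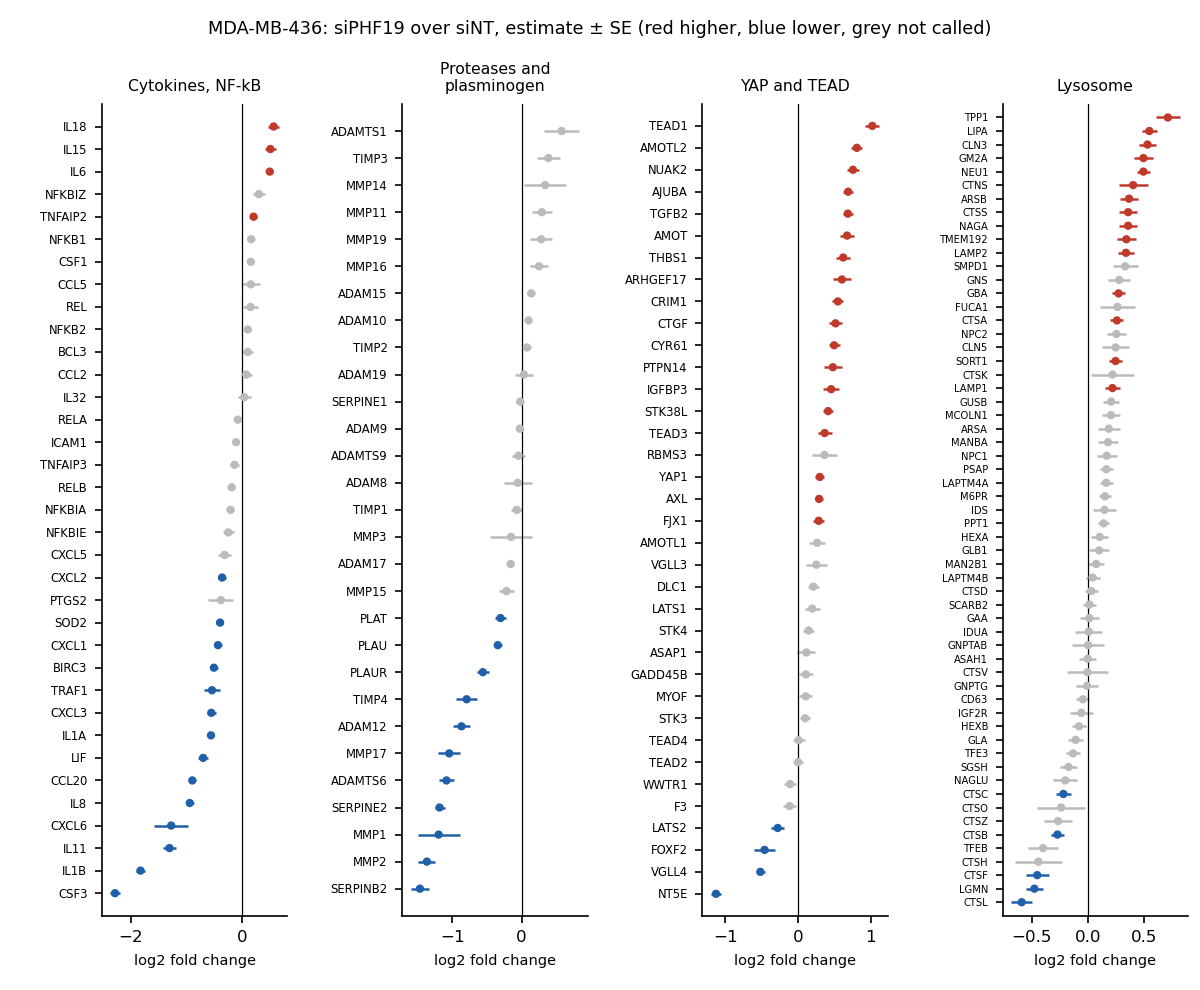
Log2 fold change of siPHF19 over siNT with its SE for every tested member of 4 lists; red members were called higher, blue members lower and grey members were not called. Protease members are blue or grey throughout, and the red members of the YAP and TEAD panel run from FJX1 (0.28) to TEAD1 (1.02).

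The extracellular matrix changed in both directions. Of 56 tested collagens and matrix genes 17 rose and 9 fell (median 0.03). TNC, the adhesion-modulating glycoprotein tenascin C, held 5477, 6628 and 7239 normalized counts in siNT and 2726, 2672 and 2363 in siPHF19 (-1.31, SE 0.10, limma adjusted p = 2.5e-05). The crosslinking enzyme TGM2 fell by 0.86 on the log2 scale. In the other direction, COL5A1 held 7832, 7791 and 7801 and 10018, 9581 and 10310.1 (0.35, adjusted p = 0.00161), the network collagen COL8A1 36, 49.6 and 46.5 and 129.7, 108 and 137 (1.49, adjusted p = 0.000294). FN1, fibronectin, was called at 0.59 (adjusted p = 0.0342), but its controls spanned 1360.0, 1872 and 2473 and siNT 3 nearly reached siPHF19 3 (2490.4). Only 1 of the 6 fits without a library kept the call. It was also lost by DESeq2 (adjusted p = 0.111) and in the limma fit without an abundance filter (adjusted p = 0.0784). Without siNT 2 and without siPHF19 1, 2 and 3 the higher count was 11, 8, 10 and 10 and the lower count 6 each time.

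Integrins and laminins tended downward, with 8 of 26 lower and 4 higher. ITGA6, which pairs with ITGB4 as a laminin receptor of hemidesmosomes, held 2720.1, 2324 and 2470.4 normalized counts in siNT and 1514, 1419.7 and 1429 in siPHF19 (-0.78, limma adjusted p = 6.83e-05). ITGB4 itself went the other way, from 379.8, 477 and 435 to 603, 739 and 576 (0.57, adjusted p = 0.00632). LAMC1, a chain of most laminins, rose from 10124, 11019.8 and 11419.9 to 14870.4, 15029.9 and 14798 (0.46, adjusted p = 0.000716). The higher count was 8 without siNT 3.

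Genes of the epithelial-mesenchymal axis did not move one way: 8 of 26 rose and 5 fell. Of the 9 transcription factors 5 fell and 0 rose by limma, edgeR or DESeq2, with 1 higher at an unadjusted limma p under 0.05. Of the 17 mesenchymal and epithelial genes 8 rose and 0 fell, with 1 lower without siNT 1 or siNT 3. SNAI2, the transcription factor Slug, held 75.3, 88.4 and 73.4 normalized counts in siNT and 17.4, 26.5 and 13.7 in siPHF19 (-2.03, SE 0.25, limma adjusted p = 0.000414). ZEB2, also a repressor of epithelial genes, held 2043, 2265 and 2516 and 1536, 1437 and 1392 (-0.64, adjusted p = 0.000547). Epithelial JUP, the desmosomal plakoglobin, rose from 277, 336 and 371 to 554, 569 and 549 (0.77, adjusted p = 0.000776), and KRT8 from 1093, 1109 and 999 to 1713, 1626 and 1824 (0.69, adjusted p = 0.000152), although KRT8 and KRT18 overlap on opposite strands. Mesenchymal CDH2, N-cadherin, also rose, from 3451, 3653 and 3675 to 5135, 5000.3 and 4882 (0.48, adjusted p = 0.000356), as did the smooth muscle gene TAGLN, from 253, 200.0 and 179.8 to 429.5, 406 and 521 (1.10, adjusted p = 0.000501). CDH1, E-cadherin, had 0 to 3.1 counts in any library. The higher count was 5 without siNT 2, siPHF19 1 or siPHF19 2.

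Several abundant actin regulators fell. FSCN1, fascin, which bundles actin in filopodia, held 10293, 11386 and 11155 normalized counts in siNT and 4922, 5109.6 and 4883 in siPHF19 (-1.14, SE 0.06, limma adjusted p = 3.37e-06). CFL1, the filament-severing cofilin, held 21059, 20159 and 18752 and 11589, 12086 and 12053 (-0.75, adjusted p = 4.14e-05). The GTPase RAC1, which drives lamellipodia, held 12464, 11854 and 11515 and 8511, 8840.2 and 8356 (-0.48, adjusted p = 0.000407), while its relative RAC3 fell by 1.05 and ENAH, an actin polymerase, by 0.68. MYL9, a regulatory myosin light chain, rose from 1013, 892 and 749.7 to 1573, 1691 and 1861 (0.96, adjusted p = 0.00025).

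In the WNT pathway 11 of 46 genes rose and 6 fell, with a median of 0.16, and these counts stayed at 9 to 14 and 6 to 7 without any 1 library. Of the 35 receptors, antagonists and effectors 10 rose and 5 fell. FZD1 held 358, 432 and 468 normalized counts in siNT and 698, 701 and 563 in siPHF19 (0.64, limma adjusted p = 0.00396), FZD2 403, 392 and 456 and 664, 632 and 633 (0.63, adjusted p = 0.000596), and ROR1, a receptor of WNT5A, 103, 109 and 129.6 and 238, 226 and 228 (1.02, adjusted p = 0.00029). The ligand WNT5A rose by 0.43. The beta-catenin partner TCF7 fell from 379, 398 and 469.6 to 261, 292 and 226 (-0.68, adjusted p = 0.00274), the destruction complex scaffold APC by 0.53 and the receptor RYK by 0.41.

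TGF-beta and BMP genes split evenly, with 8 of 48 (16.7%) in each direction, against 11.6% higher and 12.1% lower over all genes. The ligand TGFB2 rose from 1790.1, 1886 and 1662 normalized counts to 2859, 2677 and 3037 (0.68, limma adjusted p = 0.000161), whereas INHBA, the activin A subunit, fell from 314, 254 and 289 to 145, 141 and 139 (-1.0, adjusted p = 0.000184). ID2, a BMP target, rose by 0.85, and PMEPA1 and TGFBI, which TGF-beta induces, fell by 1.59 and 0.63. Without siNT 2 and siPHF19 1, 2 and 3 the higher count was 5, 3, 5 and 5 and the lower count 5, 5, 5 and 4. In the Notch list 4 of 21 fell and 1 rose (7 lower without siNT 1). With LFNG, the Notch target NRARP fell from 249, 219 and 207 to 162, 123 and 144 (-0.66, adjusted p = 0.00556), and JAG2, a ligand, by 0.44. Among guidance genes, where 10 of 52 moved each way, the semaphorin receptor NRP1 went from 1057, 1133 and 1115 to 585, 678 and 563 (-0.86, adjusted p = 9.6e-05), its ligand SEMA3C from 9112, 9563 and 10173 to 6432, 6049 and 5769.7 (-0.66, adjusted p = 0.000125), and EFNB2, an ephrin, fell by 1.14. The higher guidance count was 5, 5, 5 and 3 without siNT 2 and siPHF19 1, 2 and 3, and the lower one 6 without siNT 2.

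Homeobox and other developmental genes, the classic Polycomb targets, showed no general increase. Of 28 tested HOX genes 4 rose and 3 fell, with 3 to 4 and 2 to 3 without any 1 library and a median of -0.07. HOXA10 went from 253, 275 and 225 normalized counts to 421, 452 and 427 (0.79, limma adjusted p = 0.000402), and HOXA5, in the same cluster, from 73.1, 67.4 and 73.4 to 31.6, 28.2 and 44.4 (-1.04, adjusted p = 0.00475). Of 39 HOX genes listed, 28 passed the abundance minimum, so the count speaks only of those detected. Among 62 tested developmental transcription factors 6 rose and 9 fell (median 0.00). FOXQ1, a forkhead factor, held 97.1, 108 and 96.6 and 24, 34 and 31.7 (-1.73, adjusted p = 0.000159), and SOX9 1392, 1417 and 1485 and 879.8, 939 and 779 (-0.73, adjusted p = 0.000203). The higher count was 2, 2 and 2 without siNT 2, siPHF19 1 and siPHF19 2 and 10 without siNT 3, and the lower count was 5 without siNT 2 or siPHF19 1.

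Of 14 PRC2 genes, PHF19 among them, 4 fell and 2 rose. The higher calls, JARID2 (0.25) and LCOR (0.33), were lost without siNT 2, without any 1 siPHF19 library and with the replicate block. That of JARID2 was also lost by DESeq2 (adjusted p = 0.0568). AEBP2, an accessory subunit of the PRC2.2 form, held 1482, 1348 and 1307 normalized counts in siNT and 923, 968 and 834 in siPHF19 (-0.60, limma adjusted p = 0.000622). The core subunit SUZ12 held 1954, 1840.0 and 1896 and 1608, 1662 and 1617 (-0.22, adjusted p = 0.0221), a call kept in 2 of 6 fits without a library and lost with the replicate block. C17orf96, a subunit of the PRC2.1 form, fell by 0.61. EZH2 was not called and held 2271, 2079 and 2112 normalized counts in siNT and 2349, 2347 and 2409 in siPHF19 (log2 fold change 0.14, limma adjusted p = 0.121), EED 552, 505 and 466 and 529.8, 514 and 527 (0.05, adjusted p = 0.704). The PHF19 relatives MTF2 and PHF1 had values of 0.02 and 0.09 (adjusted p = 0.883 and 0.402). Both demethylases that remove the PRC2 mark rose, KDM6A from 648, 791 and 895 to 1077, 1108 and 1099 (0.50, adjusted p = 0.00724) and KDM6B from 1400.4, 1463 and 1662 to 2102, 1964 and 2170.4 (0.46, adjusted p = 0.0021). In PRC1, the complex that binds the mark, 4 of 24 members rose and 1 fell, with CBX6 at 0.62 and BMI1 at 0.49, and 6 rose without siNT 3. Of 27 SWI/SNF and NuRD subunits 7 fell and 2 rose, and 4 fell without siNT 2 or any 1 siPHF19 library. MTA2, a NuRD subunit, went from 4219.8, 4441 and 4563 to 2397, 2523 and 2355 (-0.86, adjusted p = 1.35e-05), and CHD4, the NuRD ATPase, from 8824, 8350.5 and 7834 to 5867, 5747 and 5572 (-0.54, adjusted p = 0.000292).

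Among cell cycle genes, inhibitors tended upward and replication factors downward. Of 14 CDK inhibitors, D cyclins and partners 7 rose and 0 fell by limma, edgeR or DESeq2, with 1 lower at an unadjusted limma p under 0.05 (median 0.22). CDKN2B, the INK4 inhibitor p15, held 154, 165 and 187 normalized counts in siNT and 304, 307 and 267 in siPHF19 (0.79, limma adjusted p = 0.000802). CDKN2C, its relative p18, held 845, 792 and 701 and 1123, 1176 and 1179.7 (0.58, adjusted p = 0.000815), and CDKN1B, p27, 1565, 1549 and 1409 and 2032, 1941 and 2066 (0.42, adjusted p = 0.00154). CDKN2B overlaps CDKN2B-AS1 on the opposite strand. Of these 14 genes 4 rose without siNT 2 or siPHF19 2. In the list of DNA replication and S phase 15 of 48 fell and 4 rose (median -0.18). ORC6, of the origin recognition complex, went from 872, 812 and 868 to 630.1, 554 and 582 (-0.53, adjusted p = 0.000914), the helicase subunit MCM3 from 3744, 3489 and 3505 to 2768, 2788 and 2746 (-0.37, adjusted p = 0.00134), and the polymerase POLD1 fell by 0.50 (adjusted p = 0.000447). RRM2, of ribonucleotide reductase, was an exception at 7577, 8308 and 9248 and 11556, 10959.8 and 10668 (0.40, adjusted p = 0.00451). Replication genes lower numbered 9, 6, 7 and 7 without siNT 2 and siPHF19 1, 2 and 3 and 23 without siNT 3, and those higher 2, 2, 1 and 2 without the first 4.

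Of 29 DNA repair genes 6 fell and 1 rose. The checkpoint kinase CHEK1 held 1079.5, 999 and 943 normalized counts in siNT and 733, 726 and 719 in siPHF19 (-0.47, SE 0.07, limma adjusted p = 0.00132). Its siPHF19 libraries were nearly equal, and siNT 1 was the highest control. The lower count ranged from 4 to 8 without any 1 library, and the higher call was lost without siNT 2 or any 1 siPHF19 library. Mitotic genes were called no more often than all genes, with 6 of 50 higher and 3 lower, and 2 higher without siNT 2 or any 1 siPHF19 library and 8 lower without siNT 3.

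Lysosomal genes rose more often than they fell, 15 against 5 of 59, with a median of 0.14. The lysosome breaks down macromolecules with hydrolases that work at the acid pH set by the vacuolar proton pump. TPP1, a lysosomal peptidase, held 681, 872 and 923 normalized counts in siNT and 1362, 1357 and 1295 in siPHF19 (0.71, SE 0.10, limma adjusted p = 0.00112), and LIPA, the acid lipase, 895, 932 and 993 and 1380.2, 1373 and 1354 (0.54, adjusted p = 0.000374). The cysteine protease CTSL fell from 8707, 6949 and 6610.1 to 4725, 5004 and 4944 (-0.59, adjusted p = 0.0017). Of the 5 lower members 5 were proteases (CTSL, LGMN, CTSF, CTSB and CTSC). The call of CTSC was kept in 2 of 6 fits without a library and lost with the replicate block and without the abundance filter, and that of CTSF was lost without siPHF19 3. Higher members numbered 8, 9, 9 and 9 without siNT 2 and siPHF19 1, 2 and 3, and lower members 3 without siPHF19 3. Subunits of the proton pump rose alongside, 9 of 20, with only ATP6V1E1 lower (4 of 20 rose without siNT 2 or any 1 siPHF19 library). The catalytic subunit ATP6V1A went from 2485, 2555 and 2572 to 3706, 3589 and 3472 (0.50, adjusted p = 0.00024). ATP6V1E2, the second gene for the E subunit, stood at 95, 94.6 and 88.1 and 73, 62.9 and 76 and was not called (-0.39, adjusted p = 0.0711). TFEB, the main transcription factor of lysosomal genes, was not called either (-0.40, adjusted p = 0.0511).

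Among lists of abundant housekeeping transcripts, the proteasome (38.7%) and mitochondrial ribosomal proteins (23.1%) had lower shares above the 12.1% of all genes. The respiratory chain (9.33%) and cytosolic ribosomal proteins (0%) did not. The counts depended on single libraries of both groups. Of 31 proteasome subunits 12 fell and 1 rose (median -0.22). PSMA6, of the 20S core, held 2781, 2582 and 2530.3 normalized counts in siNT and 1979, 1912 and 1803 in siPHF19 (-0.47, limma adjusted p = 0.000782). Without siNT 2 and siPHF19 1, 2 and 3 the lower count was 6, 4, 5 and 5 and the higher call was lost, and without siNT 3 the lower count was 23. Of 78 mitochondrial ribosomal proteins 18 fell and 1 rose, MRPL9 most (2347, 2187 and 2001 against 1312, 1319 and 1260.0, -0.75, adjusted p = 8.83e-05), and the lower count was 6, 6, 6 and 7 without siNT 2 and siPHF19 1, 2 and 3, and 36 without siNT 3. Of 75 nuclear-encoded respiratory chain genes 7 fell and 3 rose, with 2, 2, 3 and 2 lower, and the higher calls lost, without the same 4 libraries, and 31 lower without siNT 3. UQCRC2, a core protein of complex III, held 4995, 5113 and 5144 and 3375, 3318 and 3158 (-0.63, adjusted p = 5.81e-05). Of 78 cytosolic ribosomal proteins 1 rose, RPL15, whose call was kept in 2 of 6 fits without a library, and 31 fell without siNT 3. With the length trend of each library removed, the lower counts were 13 for the proteasome, 17 for mitochondrial ribosomal proteins, 8 for the respiratory chain and 2 for cytosolic ribosomal proteins.

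Stress and nutrient lists held calls in both directions. The unfolded protein response list had 4 of 30 genes higher and 5 lower, the hypoxia list 4 of 29 and 5, and the p53 list 3 of 26 and 2. In this order 13.3%, 13.8% and 11.5% were higher and 16.7%, 17.2% and 7.69% lower. Over all genes tested 11.6% were higher and 12.1% lower, so these lists lay near that share. Without siPHF19 3 they had 2, 3 and 3 higher and, for the first 2 lists, 2 and 2 lower. Without siNT 2 these lists had 2, 1 and 2 higher and 4, 2 and 1 lower. Without siPHF19 1 they had 2, 1 and 2 higher and 3, 2 and 1 lower, and without siPHF19 2 they had 2, 1 and 1 higher. Without siPHF19 3 the first had 2 higher and 2 lower, the hypoxia list had 2 lower and the lower calls of the p53 list were lost. With the trend on exon length removed, 7 hypoxia genes were higher. Without siNT 3 the unfolded protein response list had 9 lower and the p53 list 7 higher and 4 lower. Among ATF4 and amino acid genes 6 of 24 fell (25%) and 2 rose, and in glycolysis 5 of 21 fell (23.8%) and 2 rose, against 12.1% lower over all genes. The ATF4 list had 4, 3 and 3 lower without siNT 2, siPHF19 1 and siPHF19 2, its higher calls were lost without siNT 2 or any 1 siPHF19 library, and it had 7 higher without siNT 3. Glycolysis had 2, 2, 3 and 2 lower without siNT 2 and siPHF19 1, 2 and 3, 1 higher without siPHF19 1 or 2, and 4 higher without siNT 3. SLC39A14, a zinc and iron importer, held 3121, 3806 and 3715 normalized counts in siNT and 1328, 1486 and 1303 in siPHF19 (-1.37, SE 0.09, limma adjusted p = 8.9e-06). In the fatty acid and lipid storage list 7 of 24 rose (29.2%) and 4 fell (16.7%), with 5 to 13 and 2 to 6 without any 1 library. Its member ACSL4, which activates arachidonic acid, held 4065, 3892 and 3961 and 2092, 2133 and 1968 (-0.94, adjusted p = 7.46e-06). STC2, a secreted glycoprotein of the ATF4 list, held 4203, 4172 and 4079.8 and 2768, 2951 and 2766 (-0.55, adjusted p = 0.000139), and CBS, of cysteine synthesis and the same list, 246, 225 and 279 and 144, 149.9 and 124 (-0.84, adjusted p = 0.00102). DDIT4, an mTOR inhibitor, was called at -0.95 (adjusted p = 0.0117) with 653, 715 and 609 against 273, 530.1 and 270.4; siPHF19 2 stood apart, and only 1 of the 6 fits without a library kept the call.

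Gene classes defined by their symbols were counted in the same way. Ion channel subunits for potassium, sodium and calcium fell in 10 of 61 cases (16.4%) and rose in 4 (6.56%). They had 6, 5, 6 and 5 lower without siNT 2 and siPHF19 1, 2 and 3, and 2 higher without siPHF19 2. Of 508 zinc finger genes 38 (7.48%) rose and 16 (3.15%) fell, both below the shares over all genes, and the calls were 10, 11, 9 and 11 higher and 6, 3, 3 and 4 lower without the same 4 libraries. Without siNT 3 the class had 67 higher. Tubulins had 3 of 20 lower (15%), also in every fit without a library, near the 12.1% of all genes. TUBB2B, a neuronal beta tubulin, changed by -0.62 (limma adjusted p = 0.000834) and TUBB4A by -0.81 (adjusted p = 0.00333). Among 98 long intergenic noncoding RNAs 13 rose (13.3%), near the 11.6% of all genes, and 5 fell (5.1%), LINC00460 from 241, 205 and 220.1 normalized counts to 124, 124 and 126 (-0.83, adjusted p = 0.000555), with 8, 8 and 7 higher without siPHF19 1, 2 and 3 and 3 lower without siNT 2 or siPHF19 3.

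Short sequences in 3′ UTRs differed between genes that fell and the rest. Of all 4096 6-base words, AAACTG showed the largest excess, being present in 50.13% of the 3′ UTRs of 1574 genes that fell, 42.79% of 1512 that rose and 40.02% of 9285 not called. The next words, AACTGA (40.98% against 33.19% not called) and CAAACT (37.55% against 31.03%), overlap it. Joined, they spell CAAACTGA, which occurs 1 time in the PHF19 transcript and ends the stretch printed earlier. This word was chosen because of its excess, so the shares that follow are a description. A 3′ UTR with all 8 bases was found in 472 genes, of which 128 fell (27.1%) and 40 rose (8.47%), against 12.7% and 12.2% of all 12371 genes with a 3′ UTR. Extended to TCCAAACTGA, 10 bases of the stretch, the match was found in 45 genes, of which 17 fell and 4 rose.

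Genes with a match had longer 3′ UTRs, with a median of 3296 bases for the 8-base match against 1049 over all. Within 4 equal bins of 3′ UTR length, genes with AAACTG fell in 22.1%, 17.6%, 17.1% and 12.7% of cases from the shortest to the longest bin. Without the word, 13.5%, 10.4%, 8.88% and 5.45% fell. Genes that rose were rarer with the word in each bin, 6.35%, 6.83%, 11.6% and 15.7% against 7.73%, 11%, 16.7% and 23.9%. The 8-base match is shown in capitals for 4 examples among the genes that fell by at least 1 on the log2 scale, chosen after their values were seen, with 8 bases on each side.
ABRACL, chr6:139043222-139043245, plus strand: gcaacaagCAAACTGAagaccaac
CD164, chr6:109366538-109366561, minus strand: tcatgtacCAAACTGActtaaaat
G3BP1, chr5:151807319-151807342, plus strand: ttgcctccCAAACTGAtgcttttt
VAMP7, chrX:155943721-155943744, plus strand: atgacgcaCAAACTGAagatgtta

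Each of these sites lies in the last exon. CD164, a sialomucin of endosomes and the cell surface, held 5493, 5615 and 5981 normalized counts in siNT and 2300.3, 2364 and 2236 in siPHF19 (-1.31, limma adjusted p = 1.88e-06). G3BP1, which nucleates stress granules, held 11347, 10628 and 10806 and 4947, 4989.5 and 4538 (-1.18, adjusted p = 3.37e-06). VAMP7, a SNARE of late endosomes, held 4081, 4172 and 4256 and 1929.7, 1955 and 1725 (-1.16, adjusted p = 4.34e-06). In the other line, given the same siRNAs, the log2 fold changes of CD164, G3BP1, VAMP7 and ABRACL were -0.82, -0.62, -0.75 and -0.97. The difference between lines was called for CD164, G3BP1 and VAMP7 (limma adjusted p = 0.00572, 0.000364 and 0.00841). These genes were picked for the word and for their decrease in MDA-MB-436. Genes with the word were not examined as a set in BoM-1833, so these values do not speak for that set. Not every large decrease came with the word: the 3′ UTRs of IL1B, CSF3, LFNG and COL13A1 lack AAACTG, whereas ELK3 and PMEPA1 hold it 8 and 5 times. The part of such matches in the decrease of any gene was not tested.

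**Figure D5:**
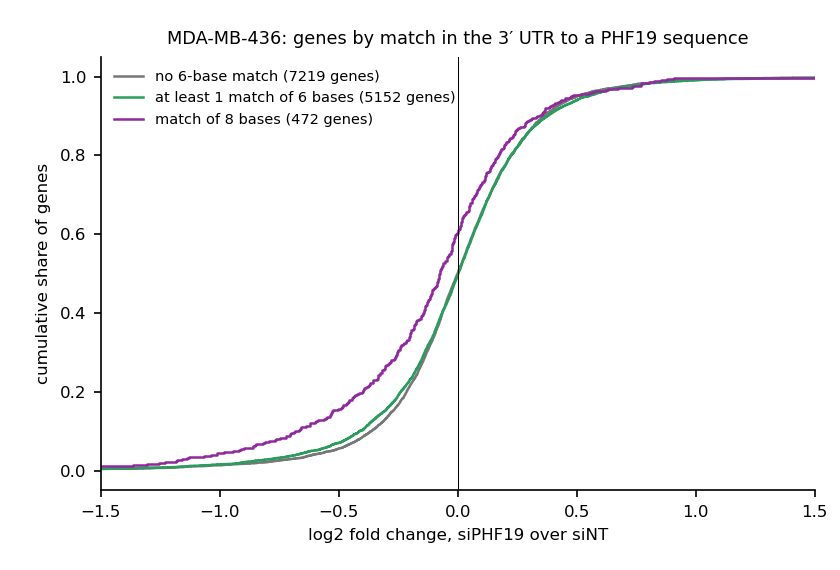
Cumulative share of genes by log2 fold change of siPHF19 over siNT, for genes whose 3′ UTR has no AAACTG (grey), at least 1 (green) or CAAACTGA (purple, 472 genes); the axis shows -1.5 to 1.5 and leaves out genes beyond. The purple curve lies to the left of the others below 0, its median being -0.08.

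Promoters were searched for binding motifs in windows of 250 bases before to 50 after the RefSeq gene start, on both strands, for 10076 tested genes. The TEAD letters GGAATG were in 10.8% of these promoters, 12.4% of those of genes that rose and 9.84% of those that fell. Among genes that rose or fell by at least 1 on the log2 scale they were in 18.5% (12 of 65) and 6.4% (8 of 125). They were in 25.9% of the YAP and TEAD list (7 of 27), and also in 42.9% of the HOX list (6 of 14). Intramembrane proteases had them in 25% (3 of 12) and autophagy genes in 22.6% (7 of 31). The lysosomal element TCACGTGA was in 1.92% of promoters, 17.5% of the lysosome list (7 of 40), 2.38% of genes that rose and 2.2% of those that fell. E2F letters (TTTCCCGC) were in 2.61% of all, 23.8% of replication genes (10 of 42), 2.6% of genes that fell and 3.04% of those that rose. The AP-1 letters TGANTCA were in 4.6% of all, 5.42% of genes that rose and 5.43% of those that fell. Among genes that fell or rose by at least 1 they were in 9.6% (12 of 125) and 7.69% (5 of 65). The hypoxia letters ACGTG were in 26.6% of all, 26.1% of genes that rose and 24.9% of those that fell. For the CCAAT box these shares were 36.4%, 37.2% and 35.1%, and for the antioxidant element TGACNNNGC 15.2%, 13.4% and 15.9%. For the ATF4 element TGATGNAAN they were 1.6%, 1.81% and 1.89%, and for the SREBP element TCACNCCAC 1.07%, 1.15% and 0.709%.

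The size of the response differed from BoM-1833 for part of the genes. A fit over all 12 libraries called a difference between lines in the effect of siPHF19 for 706 of 12588 genes tested in both (5.61%), 330 with the higher log2 fold change in MDA-MB-436 and 376 with the lower. Without siNT 2, siPHF19 1 or siPHF19 3 of MDA-MB-436 the count was 461, 404 or 462, and without siNT 3 of this line 1395. Without siNT 2, siNT 3, siPHF19 2 or siPHF19 3 of BoM-1833 it was 449, 463, 413 or 453. Of the 289 genes past a log2 fold change of 1 here, 110 had too little signal in BoM-1833 to be tested. Among the other 179, 175 changed more here than there, 74 were called in BoM-1833 in the same direction and 3 in the opposite one, and 91 had a called difference. Since the 179 were chosen for a large change here, a smaller one there follows in part from the choice.

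LFNG moved in opposite directions, -1.81 here and 0.53 in BoM-1833, a difference of -2.34 (limma adjusted p = 1.23e-07). COL13A1 (-2.17 and -0.38), PMEPA1 (-1.59 and -0.09) and ELK3 (-1.93 and -0.61) had lower values here, with differences of -1.80, -1.5 and -1.32. SYT12, a synaptotagmin, fell here (480.3, 548 and 468 against 323, 366 and 296 normalized counts, -0.60) and rose there (0.99), a difference of -1.60 (adjusted p = 0.000164). TMEM45A, a membrane protein, rose here from 89.5, 65.1 and 66 to 195, 173 and 165 (1.27) and had -0.21 there (difference 1.49, adjusted p = 0.000418). CTGF rose here (0.51) and fell there (-0.52), a difference of 1.03 (adjusted p = 0.00012). IL11 and SERPINE2 fell here (-1.30 and -1.18) and had values of 0.09 and 0.03 there (differences -1.39 and -1.21). IL1A is the reverse case, with -0.56 here and -1.65 there (difference 1.09, adjusted p = 0.000678). PHF19 fell in both lines (-3.35 and -3.19), with a difference of -0.16 that was not called (adjusted p = 0.475).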

How the data were processed

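mRNA was sequenced from 3 siNT and 3 siPHF19 libraries in each of 2 cell lines. Per the submitters' processing notes, STAR, RSEM 1.3.1, DESeq2 1.46.0 and hg38 were used, with no roles or settings given. The authors deposited, per line, a table of 29972 gene rows with a signal per library, the read count divided by the size factor of that library, beside the DESeq2 log2 fold changes, p-values and Wald statistic (a score). For MDA-MB-436, 100% of these values were whole multiples of 1 read within 0.01, so reads were recovered (15186338 to 24010271 per library) for edgeR 4.0.16 and DESeq2 1.42.0, which called 3392 and 3145 genes. The size factors remove depth but not length trends or composition shifts.

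Groups were compared with limma 3.58.1 (R 4.3.3; trend and robust options) on log2(normalized count + 1), among genes with a mean of at least 10 over the 6 libraries, with Benjamini-Hochberg adjustment over all of them. Effects were compared between lines in 1 limma fit over 12 libraries. Lists and symbol classes are described by counts and medians. On simulated counts for this comparison of 13968 genes, limma found 73.5% of genes changed 1.5-fold and 87.3% of those changed 2-fold, with 12 false calls. Only 98 and 102 genes were changed by these folds, and counts were drawn independently, without a length trend. The rates may thus not hold for the real libraries, where 3310 genes were called. Of the gene rows 28 carry date-like names and 2 names are repeated; these were not named in the text. Annotation came from GENCODE 29, and promoters from RefSeq.

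The genes named were PHF19, the 15 largest increases and decreases at a mean of at least 100, the 6 each at 10 to 100, the 6 each by difference of means, up to 3 called genes per list and 2 per class by test statistic, and 5 genes with the largest difference between lines. A few genes and 1 list that the rule would name are not reported here. Other list members and all sequence words were named after their values were seen. Members and lists were chosen with earlier results of these data known. Alternatives covered pseudocount, filter, scaling, test, replicate block, length trend and each library left out.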

Additional observations from a re-analysis of the deposited data

Results flagged for a closer look

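The effect of siPHF19 on the genes listed here differed between MDA-MB-436 and BoM-1833 at a limma adjusted p under 0.05 over all genes tested in both lines. Each value that follows is the log2 fold change in MDA-MB-436 minus that in BoM-1833, with 3 libraries a group. Apart from SYT12 and TMEM45A, named for the difference itself, these genes were named for their change in MDA-MB-436 or their place in a gene list, which favours differences toward a larger change there.

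Genes that rose in MDA-MB-436 had differences of at least 1 for several genes, with 3.77 for GJA1, 1.49 for TMEM45A, 1.38 for RP11-320G24.1, 1.38 for COL8A1, 1.23 for CPA4, 1.16 for FAM46B, 1.12 for HIPK3 and 1.03 for CTGF. GJA1, the connexin of gap junctions, stood far ahead of the rest. Smaller positive differences were 0.85 for PPME1, 0.84 for TEAD1, 0.81 for FZD1, 0.67 for TPP1 and 0.61 for IL18. They continue with 0.55 for AMOTL2, 0.52 for IL6, 0.49 for CBX6, 0.46 for KDM6B, 0.46 for LAMC1, 0.42 for FZD2, 0.38 for FSTL1, 0.37 for PABPC1, 0.34 for YAP1 and 0.32 for AJUBA. Among these are 2 frizzled receptors and several genes of the YAP and TEAD list.

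Genes that fell in MDA-MB-436 had differences of -1 or below as follows, with -2.34 for LFNG, -2.15 for PRSS3, -1.90 for SNAI2, -1.84 for FOXQ1, -1.80 for COL13A1, -1.60 for SYT12, -1.5 for PMEPA1, -1.39 for IL11, -1.32 for ELK3, -1.27 for NXT2, -1.24 for TUBB2B and -1.21 for SERPINE2. LFNG, SYT12 and the signals and transcription factors IL11, SNAI2, FOXQ1 and ELK3 are in this group. Differences between -1 and -0.5 were -0.90 for FSCN1, -0.89 for EFNB2, -0.82 for SEMA3C, -0.82 for TNC, -0.81 for CDC26, -0.76 for ATP6V1E1, -0.72 for RAC3, -0.70 for TIMP4, -0.62 for ANXA2, -0.61 for TGM2, -0.61 for NT5E, -0.57 for ENO1, -0.56 for G3BP1, -0.56 for IL8, -0.55 for NRP1, -0.55 for CTSL, -0.51 for CFL1 and -0.50 for TPM3. These hold matrix, actin and membrane proteins. Differences closer to 0 were -0.49 for ACSL4, -0.49 for CD164, -0.47 for SOX9, -0.44 for UQCRC2, -0.42 for POLD1, -0.41 for SOD2, -0.41 for VAMP7, -0.39 for ITGA6, -0.38 for SLC39A14, -0.35 for MCM3, -0.34 for CHD4, -0.27 for RAC1, -0.27 for MTA2 and -0.22 for TPM4.

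In the reverse direction, IL1A fell less in MDA-MB-436, with a difference of 1.09, and COL5A1 rose less, with -0.31.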

How the results depend on the processing

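The PHF19 log2 fold change stayed between -3.44 and -3.26 in the fits without 1 library and was called in each alternative run. The main count of 3310 called genes was 3308 and 3322 with pseudocounts of 0.5 and 5, 3026 without a filter, 3176 at a minimum mean of 50, 3327 with TMM scaling, 3392 by edgeR, 3145 by DESeq2 and 3143 in the authors' deposited table. Leaving out 1 library gave 1756 to 4836 called genes. With the length trend of each library removed, an alternative chosen after seeing the data, 3719 genes were called (1904 higher, 1815 lower). Of 169 named genes called, 18 lost the call in at least 1 alternative, most often C21orf33, FN1, JARID2, LOC102723547, FOXA1, RPL15 and CTSC. The difference between lines was called for 706 genes, and for 404 to 1395 without 1 library. Fits with 1 library left out have fewer samples; the cause of the further differences among them was not tested. The edgeR fit of the difference between lines was not run. With 3 libraries a group, changes of low-abundance genes are less precise.

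Replicate numbers did not pair the libraries by like deviations. Deviations of same-numbered siNT and siPHF19 libraries correlated at -0.0817, -0.0807 and -0.124 across genes, and no library correlated best with its own number. In BoM-1833 these correlations were -0.165, -0.074 and -0.134. In both lines each siNT library correlated lowest with the siPHF19 library of its own number, and the cause was not tested. With the replicate block, 2304 genes were called (1120 higher, 1184 lower), and the difference between lines was called for 273 genes.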
